A study of Mus musculus with 6 samples.

Results

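The genes described here bring long-chain fatty acids into heart cells and activate them. The set comprised 10 genes: the membrane protein Cd36, the fatty acid binding proteins Fabp3, Fabp4 and Fabp5, the fatty acid transport proteins Slc27a1 and Slc27a4, and the long-chain acyl-CoA synthetases Acsl1, Acsl3, Acsl4 and Acsl5. Every probe set (a group of short probes that reports 1 transcript region) whose only annotated symbol is 1 of these genes was taken, which gave 21 of 45037 probe sets for 9 of the 10 genes. Acsl1 was not matched. Of the 21 probe sets, 18 passed the filter on low signal, at least 1 for each of the 9 genes, and these were tested among 27022. Each gene is represented below by its tested probe set with the highest mean, 9 of 13236 genes in all.

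Total RNA from mouse hearts was hybridised to Affymetrix arrays, 2 arrays in each of 3 groups, all of mice on a B6 background aged 8 months that ate chow with 7% fat and 0.15% cholesterol. The treated group was apoE-deficient and was given rosiglitazone, a glucose-lowering ligand of the receptor PPAR gamma, at a daily dose of 30 mg/kg that began at the age of 6 months and lasted 2 months. The labels call these hearts failing, so the drug and the failing state cannot be told apart. The second group was apoE-deficient and untreated, and the third was wild type B6 and untreated. Animals without apoE, an apolipoprotein of remnant lipoproteins, accumulate cholesterol-rich particles in plasma. Whether both arrays of a group stand for different animals is not stated, so the p-values rest on a spread between arrays that may be technical.

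Heart muscle takes most of its energy from fatty acids. They are released from lipoproteins and albumin at the capillary wall and cross endothelium and muscle membrane with the help of Cd36, fatty acid transport proteins and binding proteins. Acyl-CoA synthetases then join them to coenzyme A, which traps them in the cell and commits them to oxidation, storage or membrane lipid. Cd36, Fabp4 and several acyl-CoA synthetase genes are known targets of the PPAR receptors.

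The arrays differed in brightness along with the groups, the treated arrays being the brightest (2%-trimmed mean signals of 263 and 341, against 126 and 130 in untreated apoE-deficient and 149 and 175 in B6 hearts). Levels below are log2(signal + 11.1) after quantile normalization, which makes the distribution of signals equal on all arrays, and differences on this scale understate the change of dim genes. Differences are given ± SE from limma, in a fit whose expected spread follows the mean signal (the intensity trend), with Benjamini-Hochberg adjusted p-values over all 27022 probe sets, and "rose", "fell", "higher" and "lower" as calls mean an adjusted p under 0.05. Apoe checked the labels, at 11.86 and 11.91 in B6 hearts and between 5.24 and 6.29 on the 4 apoE-deficient arrays. Heart muscle markers were present on every array, with all 12 cardiomyocyte markers above the filter and a summed normalized signal of 167075 to 173829 in treated, 178282 to 180497 in untreated apoE-deficient and 184323 to 185470 in B6 hearts. Of these 12 markers 3 were higher and 5 lower in treated than in untreated apoE-deficient hearts, but 0 and 12 with array medians or trimmed means made equal, 0 and 11 with scaling on the spiked-in control transcripts and 8 and 0 unscaled. Against B6 hearts 1 was higher and 5 were lower, again 0 and 12 with medians or trimmed means made equal, 0 and 11 with spike-in scaling and 3 and 0 unscaled. In such tissue RNA, fewer cells of a type and less RNA per cell cannot be told apart.

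Markers of other cell types moved with the groups. The 8 white adipocyte markers with a probe set summed to 11914 to 12120 in treated, 1087 to 1117 in untreated apoE-deficient and 1637 to 1688 in B6 hearts, and 6 of 7 tested ones were higher in treated than in untreated apoE-deficient hearts. The hormone gene Adipoq stood at 3194 and 3394 normalized signal units in treated hearts and at 84.9 and 87.4 in untreated apoE-deficient hearts. Of 7 tested brown adipocyte markers 5 were higher and 0 lower, and the summed signal of 8 was 25146 to 25737 against 15668 to 15984. The sum gives little sign of the change of single markers, whose median log2 difference was 2.06. Among them Ucp1 stood at 6196 and 6243 units in treated and at 3.15 and 4.81 in untreated apoE-deficient hearts. Of 6 tested airway and lung markers 4 were higher and 0 lower, with a sum over 8 of 14722 to 15542 against 135 to 149. The 11 capillary endothelial markers summed to 11672 to 12260 against 9405 to 9626 (5 higher and 2 lower), and the 12 macrophage markers to 13946 to 13972 against 13978 to 14104 (2 higher and 2 lower). The 8 fibroblast markers summed to 24965 to 24972 against 20212 to 20276 (6 higher and 0 lower). These counts moved with the processing, the fibroblast one to 5 and 1 with array medians and 4 and 1 with trimmed means made equal. Without the intensity trend fibroblast markers held 1 higher and 0 lower, endothelial markers 3 and 1 and macrophage markers 0 and 1. White and brown adipocyte markers then held 5 and 0 each and airway markers 4 and 0. Among these markers Lep, Zic1, Sftpa1 and Sftpd lay below the filter. Of all genes tested, 11.4% were higher and 12.3% lower in treated than in untreated apoE-deficient hearts. Fabp4, Fabp5 and Cd36 are also made by adipocytes, endothelial cells or macrophages. The part of these cells in the values below was not tested.

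Treated hearts held more mRNA of the fatty acid binding proteins Fabp5 and Fabp4 than untreated apoE-deficient hearts, 4.68-fold and 2.13-fold, and less of the transport protein Slc27a1, at 0.646-fold, a direction that turned only when signals were left unscaled. Acsl4 also passed as higher, by 1.58-fold, as did Cd36, by 1.32-fold at its brightest probe set, whose sign turned with array medians or trimmed means made equal while the other 2 Cd36 probe sets kept theirs. Fabp3, Slc27a4, Acsl3 and Acsl5 did not pass. In all, 4 member genes rose and 1 fell of 9 tested, beside 23.7% of all genes called in either direction, 11.4% higher and 12.3% lower. The arrays of the compared groups did not overlap for 6 of the 9 genes, beside 63.5% of all genes. The median difference was 0.40 over the 9 member genes and -0.034 over all genes tested. This member median is the value of the brightest Cd36 probe set, so it moved with the scaling. With array medians or trimmed means made equal it was the value of Acsl5, which did not pass (0.22 and 0.15), beside 0.071 and 0.0035 over all genes. Counted by probe set, 9 rose and 2 fell of 18, beside 19.8% of all probe sets called, 10% higher and 9.81% lower. The 9 belong to Cd36, Fabp4, Fabp5 and Acsl4 and the 2 to Slc27a1, and probe sets of 1 gene are not independent of each other. The 3 comparisons share arrays in pairs, so they are not independent of each other.

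**Figure D1:**
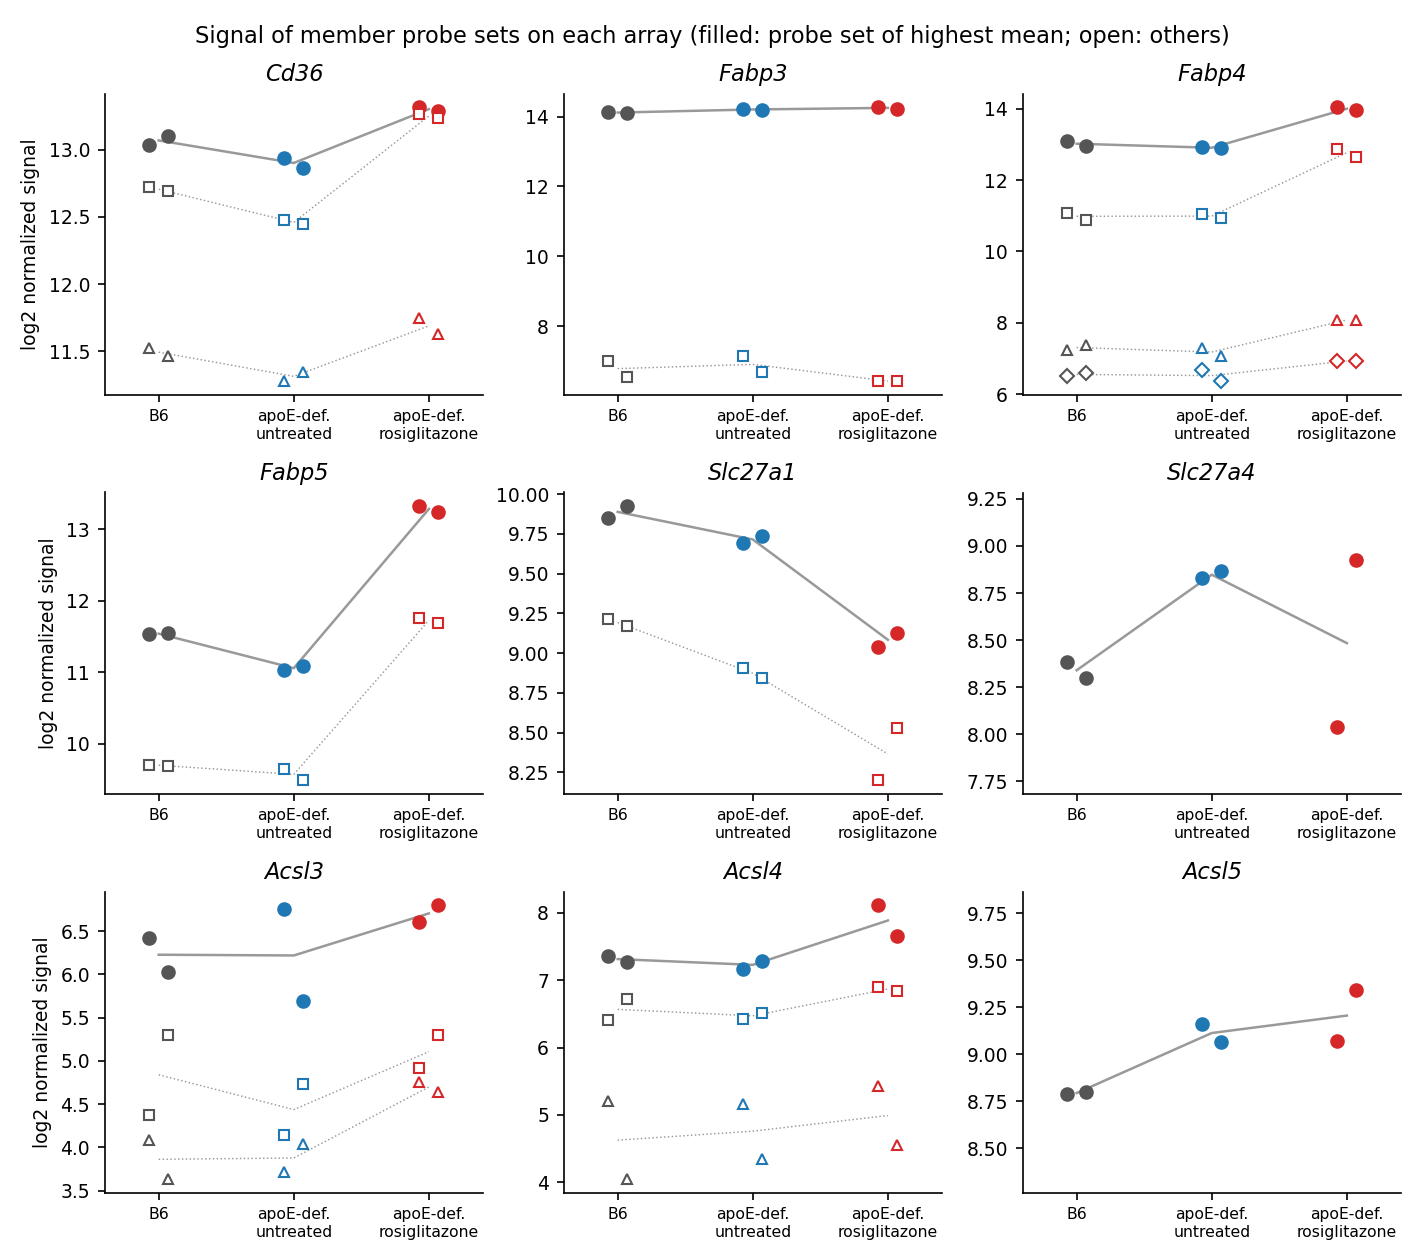
Each panel plots the log2 normalized signal (vertical axis) of every probe set of a member gene on the 6 arrays, 2 each of B6, untreated apoE-deficient and rosiglitazone-treated apoE-deficient hearts. Filled points are the probe set with the highest mean, open squares, triangles and diamonds the others, and lines join the means of 2 arrays. Both Fabp5 probe sets stand above the other groups on both treated arrays, at 13.32 and 13.24 for the brighter one, while Slc27a1 lies below them at 9.04 and 9.13.

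Cd36 is the main membrane facilitator of fatty acid uptake in heart and fat. Its brightest probe set (1423166_at) read 13.32 and 13.29 in treated, 12.93 and 12.87 in untreated apoE-deficient and 13.04 and 13.10 in B6 hearts. The treated arrays were the highest and the untreated apoE-deficient ones the lowest, and the 3 groups did not overlap. Treated exceeded untreated apoE-deficient hearts by 0.40 ± 0.04 (adjusted p = 0.000146) and B6 hearts by 0.23 ± 0.04 (adjusted p = 0.00343), but both signs turned with array medians made equal (-0.10 and -0.22) and with trimmed means made equal (-0.17 and -0.22), where the values against B6 hearts passed as lower, and neither passed with spike-in scaling (0.0037 and 0.096) or without the intensity trend. The other Cd36 probe sets kept their sign in the first comparison. The second (1450883_a_at) read 13.26 and 13.24 in treated, 12.47 and 12.44 in untreated apoE-deficient and 12.72 and 12.69 in B6 hearts, so that the groups lay apart again. It was higher in treated than in untreated apoE-deficient hearts by 0.79 ± 0.03 (adjusted p = 1.42e-06), and passed with each of the 4 other scalings (0.30 to 1.53), and against B6 hearts it was higher by 0.55 ± 0.03 (adjusted p = 1.69e-05), a call lost with trimmed means made equal (0.14). The third (1450884_at) read 11.75 and 11.63, 11.28 and 11.35, and 11.52 and 11.46 in the same order of groups, and was higher in treated than in untreated apoE-deficient hearts by 0.38 ± 0.05 (adjusted p = 0.00136), also with each other scaling (0.24 to 1.46). Against B6 hearts it was higher by 0.20 ± 0.05 (adjusted p = 0.0393). That call was lost with array medians or trimmed means made equal (0.096 and 0.098).

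The RefSeq window from 250 bases before to 50 bases after the annotated start of Cd36 is shown with those of Acsl4, which also rose, and Slc27a1, which fell, because PPAR and RXR receptors bind a direct repeat of AGGTCA with 1 base between (AGGTCANAGGTCA). Capitals mark matches on either strand to that repeat with up to 3 mismatches or to the single unit AGGTCA, each printed 5′ to 3′ on the gene's strand. RefSeq windows were found for 8 of the 10 genes, those of Fabp4 and Fabp5 not being among them.
Cd36, GRCm38.p6 chr5:17835847-17836146, minus strand: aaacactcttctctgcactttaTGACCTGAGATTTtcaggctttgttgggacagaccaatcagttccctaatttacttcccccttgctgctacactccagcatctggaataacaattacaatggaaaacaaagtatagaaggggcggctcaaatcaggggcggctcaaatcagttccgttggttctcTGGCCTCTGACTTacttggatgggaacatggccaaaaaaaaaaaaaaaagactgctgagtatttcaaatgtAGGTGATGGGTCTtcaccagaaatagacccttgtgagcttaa
Acsl4, GRCm38.p6 chrX:142390486-142390785, minus strand: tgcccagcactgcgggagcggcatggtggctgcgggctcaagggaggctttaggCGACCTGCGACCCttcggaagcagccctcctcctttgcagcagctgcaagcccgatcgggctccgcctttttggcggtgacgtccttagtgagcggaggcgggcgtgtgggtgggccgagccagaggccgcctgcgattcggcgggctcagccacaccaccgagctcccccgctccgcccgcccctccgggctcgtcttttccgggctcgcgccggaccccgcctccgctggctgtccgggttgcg
Slc27a1, first of 3 windows, GRCm38.p6 chr8:71568621-71568920, plus strand: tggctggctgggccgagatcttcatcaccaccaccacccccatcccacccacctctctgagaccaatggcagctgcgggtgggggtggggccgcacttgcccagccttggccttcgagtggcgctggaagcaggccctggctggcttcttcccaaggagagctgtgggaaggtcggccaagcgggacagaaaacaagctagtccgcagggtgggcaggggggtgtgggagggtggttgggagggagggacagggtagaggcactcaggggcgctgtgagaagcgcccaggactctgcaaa
The Cd36 window held 3 such repeats, beginning 228 and 63 bases before the start and 8 bases after it, of which the one at 63 had 2 mismatches and the others 3. Its 1 exact AGGTCA, read on the strand opposite to the gene, lies within the repeat at 228. The Acsl4 window held 1 repeat with 3 mismatches, 196 bases before the start, and the Acsl5 window 1 with 3 mismatches, 14 bases before it. The windows of Slc27a1 (3), Acsl1 (2), Fabp3, Slc27a4 and Acsl3 held neither motif. Of all 32851 RefSeq windows of this length, 24.6% hold the repeat with up to 3 mismatches, 3.86% with up to 2 and 16.3% an exact AGGTCA. A match is a description of letters, not a site of binding.

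Slc27a1 (FATP1) is a transport protein of muscle and fat with acyl-CoA synthetase activity of its own. Its brighter probe set (1422811_at) read 9.04 and 9.13 in treated, 9.69 and 9.74 in untreated apoE-deficient and 9.85 and 9.92 in B6 hearts. The treated arrays lay below all others. The difference from untreated apoE-deficient hearts was -0.63 ± 0.07 (adjusted p = 0.00035) and that from B6 hearts -0.80 ± 0.07 (adjusted p = 0.00011), and both passed with the 3 other scalings that equalise the arrays (-0.60 to -0.43 and -0.79 to -0.47), while with unscaled signals the signs turned (0.60 and 0.093). The other probe set (1435658_at), at 8.20 and 8.53 in treated, 8.90 and 8.84 in untreated apoE-deficient and 9.22 and 9.17 in B6 hearts, was lower than in untreated apoE-deficient hearts (-0.51 ± 0.11, adjusted p = 0.0129). That call was lost when treated replicate 1 (-0.35) or untreated replicate 1 (-0.47) was left out and with spike-in scaling (-0.25), and its sign turned with unscaled signals (0.77). Its difference from B6 hearts was -0.83 ± 0.11 (adjusted p = 0.00132), again turning with unscaled signals (0.079). Untreated apoE-deficient and B6 hearts did not pass for either probe set (-0.17 ± 0.07 and -0.32 ± 0.11, adjusted p = 0.182 and 0.133), although 1435658_at passed as lower with array medians made equal (-0.43, adjusted p = 0.0372).

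Slc27a4 (FATP4), the other transport protein, had 1 probe set (1424441_at), at 8.04 and 8.93 in treated, 8.83 and 8.87 in untreated apoE-deficient and 8.38 and 8.30 in B6 hearts. The treated arrays disagreed with each other, 1 below and 1 above every other array. No comparison passed, with -0.36 ± 0.23 for treated against untreated apoE-deficient (adjusted p = 0.313), 0.51 ± 0.23 for untreated apoE-deficient against B6 (adjusted p = 0.229) and 0.14 ± 0.23 for treated against B6 hearts (adjusted p = 0.762). Without treated replicate 2 the first passed as lower (-0.81), and without treated replicate 1 it was 0.080 and the last passed as higher (0.59). The second passed as higher when either treated array was left out or the fit held only those groups (0.51 each). With unscaled signals the first turned and passed as higher (0.91), as did the last (1.05).

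The binding proteins are small cytosolic carriers that hold fatty acids in solution. Fabp5, the epidermal type, is found in capillary endothelium, macrophages and fat. Its brighter probe set (1416021_a_at) read 13.32 and 13.24 in treated, 11.03 and 11.08 in untreated apoE-deficient and 11.53 and 11.55 in B6 hearts. In normalized signal these were 10216 and 9692, 2081 and 2157, and 2942 and 2987 units. The treated arrays stood far above the rest and the untreated apoE-deficient arrays were the lowest, with no overlap. Treated hearts exceeded untreated apoE-deficient hearts by 2.23 ± 0.04 (adjusted p = 1.52e-08) and B6 hearts by 1.74 ± 0.04 (adjusted p = 7.29e-08). Only 0.393% of the genes tested had a higher difference in the first comparison, and both differences passed under each of the 18 alternatives tried (1.87 to 3.09 and 1.42 to 2.31). The second probe set (1416022_at), at 11.76 and 11.69 in treated, 9.65 and 9.49 in untreated apoE-deficient and 9.71 and 9.69 in B6 hearts, gave 2.15 ± 0.07 and 2.03 ± 0.07 for these comparisons (adjusted p = 2.21e-07 and 3.78e-07). In untreated apoE-deficient against B6 hearts the brighter one was lower (-0.48 ± 0.04, adjusted p = 0.000469, a call lost only without the intensity trend) and the other gave -0.13 ± 0.07 (adjusted p = 0.306). Whether the probe sets differ was not tested.

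Fabp4, the carrier of adipocytes and capillary endothelium, had 4 tested probe sets. The brightest (1417023_a_at) read 14.04 and 13.96 in treated, 12.92 and 12.89 in untreated apoE-deficient and 13.08 and 12.96 in B6 hearts. Treated arrays were above all others. The difference from untreated apoE-deficient hearts was 1.09 ± 0.05 (adjusted p = 1.48e-06) and from B6 hearts 0.98 ± 0.05 (adjusted p = 3.39e-06). Both passed under every scaling, but the size of the first ranged from 0.39 with trimmed means made equal to 1.62 with unscaled signals, and that of the second from 0.41 to 1.30. The second probe set (1451263_a_at) rose from 11.04 and 10.95 in untreated apoE-deficient and 11.08 and 10.89 in B6 hearts to 12.88 and 12.65 in treated hearts, by 1.78 ± 0.08 against untreated apoE-deficient hearts (adjusted p = 2.74e-06) and with 1.52 to 2.74 over the other scalings. The third (1424155_at) was higher by 0.90 ± 0.14 (adjusted p = 0.00235), and the dimmest (1425809_at) gave 0.41 ± 0.19, which did not pass (adjusted p = 0.18) except with spike-in scaling (0.70) and unscaled signals (1.64). None of the 4 passed between untreated apoE-deficient and B6 hearts (-0.13 to 0.0053), where the brightest gave -0.11 ± 0.05 (adjusted p = 0.196) and turned with trimmed means made equal (0.016) and spike-in scaling (0.15). Fabp4 and Fabp5 lie in 1 cluster on mouse chromosome 3, with the related carrier genes Pmp2 and Fabp9 between them in the RefSeq annotation. Pmp2 stayed between 4.42 and 5.95 on all arrays and Fabp9, which was below the filter, between 3.80 and 4.72.

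Fabp3, the heart type carrier, is the main binding protein of heart muscle. Its main probe set (1416023_at) read 14.27 and 14.23 in treated, 14.22 and 14.19 in untreated apoE-deficient and 14.13 and 14.10 in B6 hearts. The groups lay in that order without overlap, although close together. Treated against untreated apoE-deficient hearts did not pass (0.046 ± 0.029, adjusted p = 0.316), and treated against B6 hearts passed as higher by 0.13 ± 0.03 (adjusted p = 0.0136). That call was lost without the filter, without the intensity trend, and without treated replicate 1 (0.10) or B6 replicate 2 (0.12). Both signs turned, and passed as lower, with array medians made equal (-0.70 and -0.59), trimmed means made equal (-0.77 and -0.58) and spike-in scaling (-0.60 and -0.27), and turned without passing when its probe sets were averaged (-0.22 and -0.11), so no direction is given for Fabp3. Untreated apoE-deficient against B6 hearts gave 0.088 ± 0.029 (adjusted p = 0.107), which passed as higher with spike-in scaling (0.33, adjusted p = 0.00923) and turned when unscaled (-0.15). In the deposited signals, before scaling, Fabp3 read 24550 and 20144 in treated, 16262 and 16233 in untreated apoE-deficient and 19031 and 17023 in B6 hearts. A second probe set (1444844_at, 6.43 to 7.14) passed in no comparison, with -0.48 ± 0.23 for treated against untreated apoE-deficient hearts (adjusted p = 0.196).

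**Figure D2:**
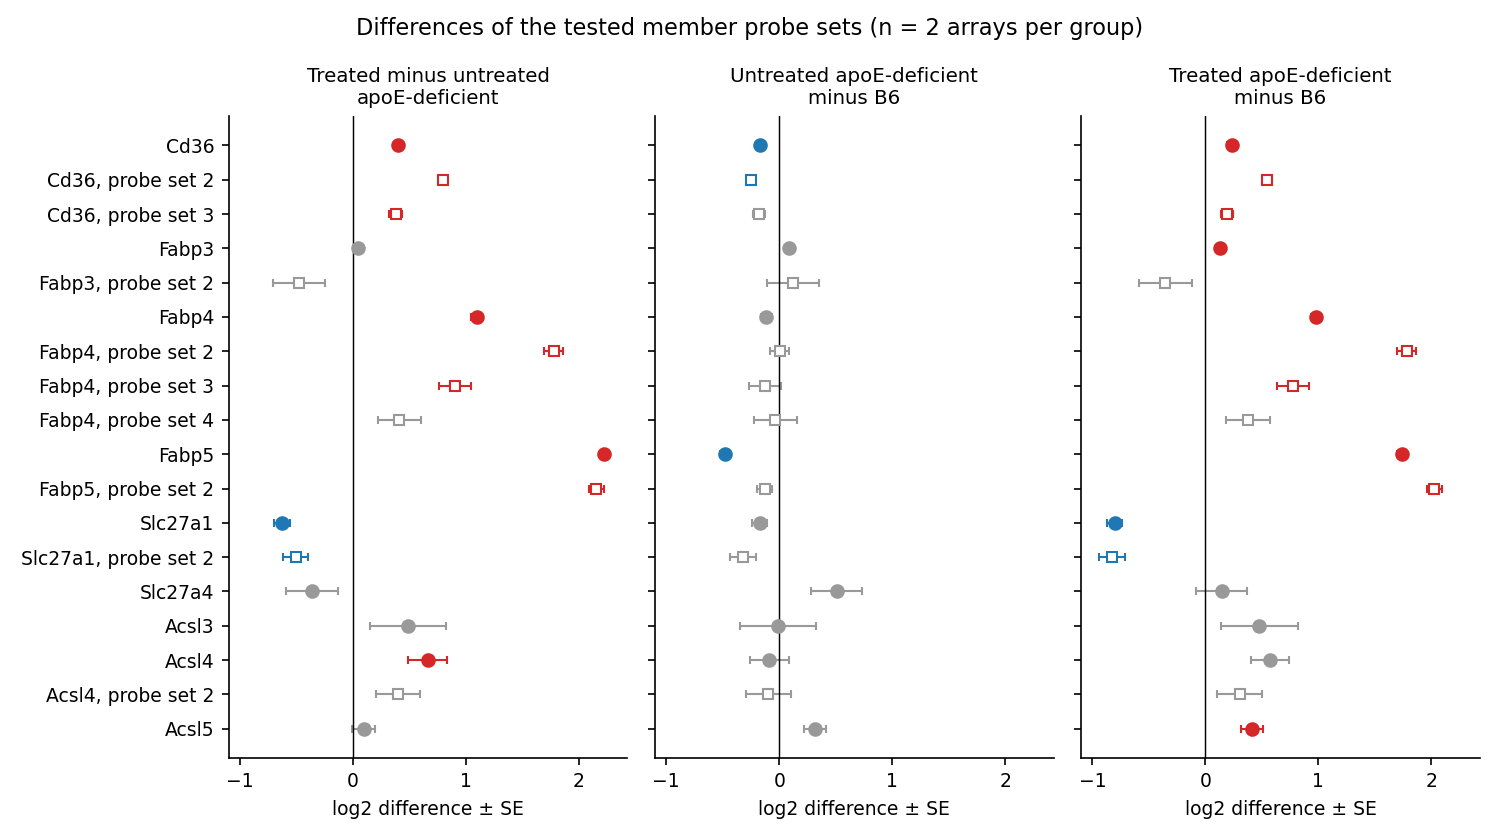
The log2 difference ± SE (horizontal axis) of the 18 tested member probe sets is plotted in 3 comparisons, with filled circles for the probe set that represents a gene and open squares for the others. Red marks a call as higher, blue as lower and grey no call at an adjusted p under 0.05. A Fabp5 probe set lies farthest to the right against both other groups, at 2.23 and 2.03, and both Slc27a1 probe sets lie to the left (to the right only when unscaled). The brightest Cd36 probe set, higher in treated hearts here, turned with array medians or trimmed means made equal, the other Cd36 probe sets did not, and only 3 points are called between untreated apoE-deficient and B6 hearts.

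Among the acyl-CoA synthetases Acsl4, which prefers arachidonic acid, read 8.11 and 7.66 in treated, 7.17 and 7.29 in untreated apoE-deficient and 7.36 and 7.27 in B6 hearts (1433531_at). The treated arrays were above the rest but apart from each other. The difference from untreated apoE-deficient hearts was 0.66 ± 0.17 (adjusted p = 0.0253) and was positive under all 18 alternatives, but the call was lost without the intensity trend and when treated replicate 1 (0.43) or either untreated array (0.60 and 0.72) was left out. Against B6 hearts it gave 0.57 ± 0.17 (adjusted p = 0.054), which did not pass, but passed with each of the 4 other scalings (0.62 to 1.47), a pseudocount of 50 (0.48), a filter at the 60th percentile (0.57) and without treated replicate 2 (0.80). A second probe set (1418911_s_at, 6.89 and 6.85 in treated, 6.43 and 6.51 in untreated apoE-deficient, 6.41 and 6.73 in B6 hearts) differed by 0.40 ± 0.20 (adjusted p = 0.201), and the remaining one (1451828_a_at) was below the filter, at 4.05 to 5.43.

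Acsl5, a synthetase of mitochondria and endoplasmic reticulum, read 9.07 and 9.34 in treated, 9.16 and 9.07 in untreated apoE-deficient and 8.79 and 8.80 in B6 hearts (1428082_at). Both apoE-deficient groups stood above B6 on every array and overlapped each other. Treated exceeded B6 hearts by 0.41 ± 0.10 (adjusted p = 0.0235), a call that was lost without the intensity trend, treated replicate 2 (0.28), B6 replicate 1 (0.40) or B6 replicate 2 (0.42). Untreated apoE-deficient against B6 hearts gave 0.32 ± 0.10 and did not pass (adjusted p = 0.0956), but passed with spike-in scaling (0.43, adjusted p = 0.0243) and turned to -0.034 with unscaled signals. Treated against untreated apoE-deficient hearts gave 0.093 ± 0.10 (adjusted p = 0.576) and passed as higher with spike-in scaling (0.32, adjusted p = 0.0389) and unscaled signals (1.35). Acsl3, which is found on lipid droplets and endoplasmic reticulum, had 1 tested probe set. The tested probe set (1452771_s_at) read 6.61 and 6.80 in treated, 6.75 and 5.69 in untreated apoE-deficient and 6.43 and 6.03 in B6 hearts. The untreated apoE-deficient arrays lay farther apart than the means of any groups, and no comparison passed (0.49 ± 0.34 for treated against untreated apoE-deficient hearts, adjusted p = 0.369). Without untreated replicate 1 that comparison passed as higher (1.03), and without untreated replicate 2 it gave -0.046. The other Acsl3 probe sets (1428386_at and 1428387_at) were below the filter, at 4.14 to 5.30 and 3.63 to 4.76.

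The second comparison set untreated apoE-deficient against B6 hearts. Fabp5 (-0.48 ± 0.04) and Cd36 (-0.17 ± 0.04, adjusted p = 0.033) passed as lower and the other 7 member genes did not pass, beside 8.51% of all genes called, 3.85% higher and 4.66% lower. The Cd36 call was lost without any 1 of the 4 arrays compared (-0.20 to -0.13), with array medians or trimmed means made equal (-0.12 and -0.045), with unscaled signals (-0.38) and without the filter or the trend, and its sign turned with spike-in scaling (0.093). Its second probe set was lower by 0.25 ± 0.03 (adjusted p = 0.0042), which was lost with trimmed means made equal (-0.16) and spike-in scaling (-0.021). With spike-in scaling Fabp5 was the 1 lower gene, and Fabp3 and Acsl5 passed as higher, so that the split was 2 higher and 1 lower. The arrays did not overlap for 7 of 9 member genes, beside 52.8% of all genes, and the median difference was -0.086 against 0.000603 over all genes. By probe set, 0 rose and 3 fell of 18, all 3 of them Fabp5 or Cd36, beside 7.06% called, 3.17% higher and 3.9% lower. Of the marker lists, 4 of 7 white adipocyte markers were lower and 0 higher, and 6 of 12 macrophage markers were higher and 1 lower, with sums of 13978 to 14104 against 10395 to 10598. Of 11 capillary endothelial markers 2 were higher and 3 lower (9405 to 9626 against 9029 to 9382), and of 8 fibroblast markers 0 were higher and 3 lower (20212 to 20276 against 22739 to 23125). Without the intensity trend the white adipocyte, macrophage, endothelial and fibroblast lists each held 0 higher and 0 lower. Among the 12 cardiomyocyte, 7 brown adipocyte and 6 airway markers limma called 0, with 7, 4 and 0 at an unadjusted p under 0.05, although 2 cardiomyocyte and 2 brown adipocyte markers passed as higher with spike-in scaling. Their part in these values was not tested.

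The third comparison set treated against B6 hearts and combines the absence of apoE with the drug and the failing state. Fabp5, Fabp4, Acsl5, Cd36 and Fabp3 passed as higher and Slc27a1 as lower, so 5 rose and 1 fell of 9 tested, beside 18.7% of all genes called, 8.78% higher and 9.87% lower. Of the 5, Cd36 (at its brightest probe set) and Fabp3 turned to lower with array medians or trimmed means made equal, where the split was 4 higher and 3 lower, and Fabp3 also with spike-in scaling, where it was 4 and 2. Unscaled, 8 were higher and 0 lower, beside 10021 of 13228 genes called in either direction. The arrays did not overlap for 8 of 9 member genes, beside 61.4% of all genes, and the median difference was 0.41 against -0.027 over all genes. By probe set, 10 rose and 2 fell of 18, beside 15% called, 7.46% higher and 7.58% lower. The 10 belong to Cd36, Fabp3, Fabp4, Fabp5 and Acsl5 and the 2 to Slc27a1. All 7 tested white adipocyte markers, 7 of 12 macrophage markers and 4 of 6 airway markers were higher in this comparison and 0 lower. Of 7 brown adipocyte markers 5 were higher and 1 lower, of 11 capillary endothelial markers 6 and 4, of 8 fibroblast markers 3 and 1, and of 12 cardiomyocyte markers 1 and 5. Fibroblast markers held 1 higher and 2 lower with array medians or trimmed means made equal. Spike-in scaling gave 5 and 0 for fibroblast and 7 and 0 for endothelial markers. Without the intensity trend these were 0 and 0 and 2 and 0, with macrophage markers at 3 and 0 and white adipocyte markers at 5 and 0. The part of these cells was not tested.

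**Figure D3:**
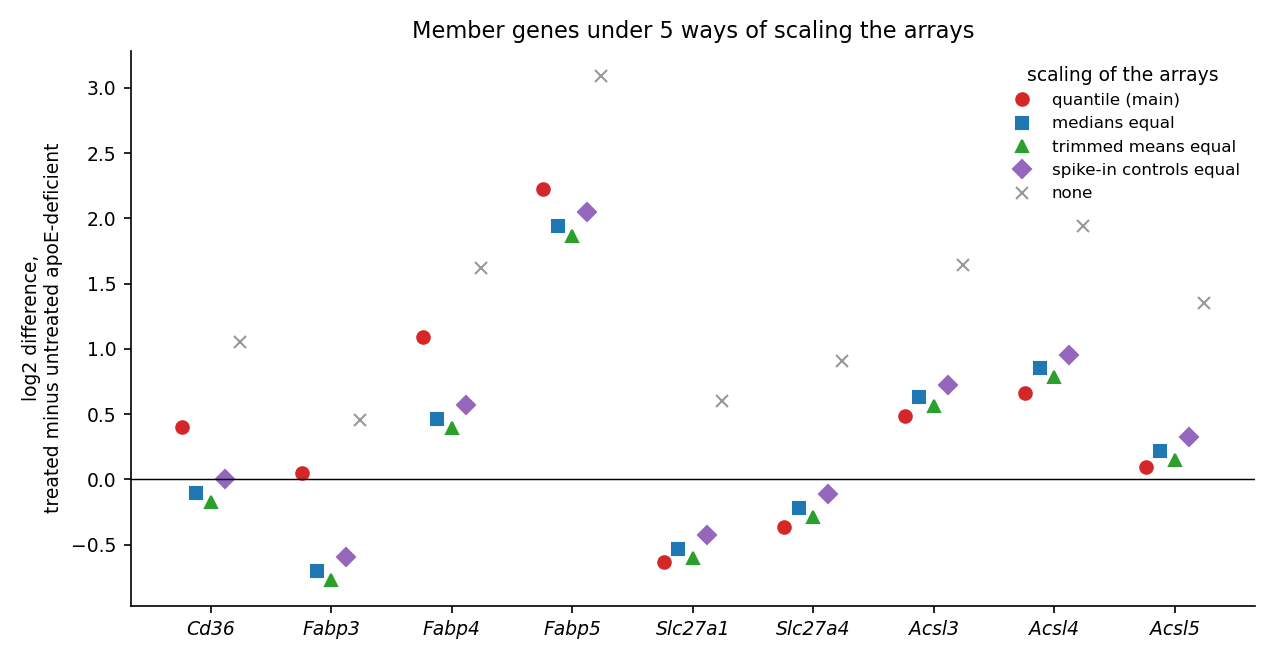
The log2 difference of each member gene, at its brightest tested probe set, between treated and untreated apoE-deficient hearts (vertical axis) is plotted for 5 ways of scaling the arrays. Fabp4, Fabp5, Acsl3, Acsl4 and Acsl5 stay above 0 with each and Slc27a1 and Slc27a4 below 0 with all but the unscaled signals, whereas Cd36 and Fabp3 change sign among the scaled values.

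In treated against untreated apoE-deficient hearts the sign of Fabp3 and of the brightest Cd36 probe set depended on the scaling. The other 2 Cd36 probe sets were called higher in this comparison with all 5 scalings, but not against B6 hearts. Fabp3 went from 0.046 to -0.70 with array medians made equal and to -0.77 with trimmed means made equal. With array medians made equal Fabp5 went from 2.23 to 1.94, while Acsl4 went the other way, from 0.66 to 0.85. With unscaled signals all 9 member genes passed as higher, beside 11675 of 13228 genes called in either direction. Over all probe sets, making array medians equal shifted the median from -0.016 to 0.086, spike-in scaling to 0.18 and no scaling to 1.13.

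Other genes of fatty acid handling were followed in 5 lists. Beside the list counts below, 11.4% of all genes rose and 12.3% fell in treated against untreated apoE-deficient hearts, with a median of -0.034. The adipocyte, endothelial and airway markers given above moved in the same comparison, and their part in these lists was not tested. With the signals unscaled, 20 of the 22 list genes that fell in treated against untreated apoE-deficient hearts turned to higher (all but Acot1 and Tcf15), and 0 turned with the other 3 scalings. Among 13 tested genes of other uptake, binding and activation proteins, 5 rose and 4 fell, with a median of 0.13. Slc27a2, a very-long-chain acyl-CoA synthetase best known from liver and kidney, rose by 3.18 ± 0.26 (adjusted p = 7.05e-05), the acyl-CoA binding protein Dbi by 0.95 ± 0.04, and the caveolar genes Cav2, Cavin1 and Cav1 by 0.62 ± 0.06, 0.46 ± 0.07 and 0.25 ± 0.04, the last losing its call with array medians or trimmed means made equal (0.10 and 0.030). The acetyl-CoA synthetase Acss1 (-0.31 ± 0.04), the plasma membrane binding protein and aspartate transaminase Got2 (-0.15 ± 0.04) and the synthetases Acsf2 (-1.03 ± 0.30) and Acsf3 (-0.46 ± 0.13) fell, all above 0 when unscaled. Acsf2 and Acsf3 lost their calls with array medians made equal (-0.90 and -0.29) and spike-in scaling (-0.83 and -0.19). Acsf2 also lost its call without any 1 of the 4 arrays compared, Acsf3 with trimmed means made equal (-0.36) and without any 1 of the 6 arrays other than treated replicate 2, and Got2 when replicate 1 of either group was left out. Of the 23 genes listed, 21 had a probe set and 8 of these were below the filter.

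Of 10 genes that release fatty acids from triglyceride or control that release, 5 rose and 1 fell, with a median of 0.32. Angptl4, an inhibitor of lipoprotein lipase and PPAR target, rose by 4.88 ± 0.21 (adjusted p = 1.42e-06), hormone-sensitive lipase Lipe by 1.32 ± 0.10, monoglyceride lipase Mgll by 1.04 ± 0.07, lysosomal lipase Lipa by 0.81 ± 0.08 and Gpihbp1, which carries lipoprotein lipase across capillary endothelium, by 0.67 ± 0.05. Lipe is also on the white adipocyte marker list and Gpihbp1 on the endothelial one. The lipoprotein receptor Vldlr fell (-0.63 ± 0.04, adjusted p = 1.1e-05), but stood at 0.32 with unscaled signals.

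The genes of the next steps carry acyl-CoA onward or split it. Of 7 genes of acyl-CoA entry into mitochondria, 5 fell and 1 rose, with a median of -0.39. Those lower were Cpt2 (-0.39 ± 0.04), the carnitine carrier Slc25a20 (-0.47 ± 0.07), carnitine acetyltransferase Crat (-0.18 ± 0.05), the muscle acetyl-CoA carboxylase Acacb (-0.43 ± 0.05) and malonyl-CoA decarboxylase Mlycd (-0.56 ± 0.08), each of which was above 0 when unscaled. Crat was not called when spike-ins set the scale (-0.12), nor when treated replicate 2 or either untreated array was left out. Acaca, the acetyl-CoA carboxylase of fatty acid synthesis, was the one higher, by 1.10 ± 0.12. Of the 8 genes listed 7 had a probe set, the one without being either Cpt1a or Cpt1b. The other of these was the 1 tested gene not called. It passed as higher with array medians or trimmed means made equal, where the counts were 2 higher and 5 lower, and with spike-in scaling. The count gives no direction for the entry step as a whole. Of 7 acyl-CoA thioesterases, which undo the synthetase reaction, 4 fell and 0 rose, with a median of -0.24. These were Acot1 (-1.26 ± 0.17), Acot2 (-0.44 ± 0.06), Acot7 (-0.24 ± 0.05) and Acot13 (-0.46 ± 0.05). Of them Acot7 was not called when spike-ins set the scale (-0.14), and all but Acot1 were above 0 when unscaled.

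Of 13 regulators, 2 rose and 8 fell, with a median of -0.47. Pparg, the receptor of the drug, rose by 0.82 ± 0.17 and the endothelial transcription factor Meox2 by 0.69 ± 0.13. Both calls were lost without treated replicate 1, where Rxrb (named after its values were seen) passed as higher, and that of Pparg also without untreated replicate 2. Tcf15, the partner of Meox2 in capillary fatty acid uptake, was lower in treated hearts (-1.36 ± 0.13, adjusted p = 0.000183), and Klf15 (-0.78 ± 0.08), Flt1 (-0.88 ± 0.10), its ligand gene Vegfb (-0.49 ± 0.07) and the coactivator Ppargc1a (-0.58 ± 0.07) also fell, all but Tcf15 standing above 0 when unscaled. Flt1 is also on the endothelial marker list. The other 3 that fell lost their calls with spike-in scaling.

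The counts of these 5 lists moved with the processing. Without the intensity trend the other uptake genes held 4 higher and 0 lower, the entry genes 1 and 0, the thioesterases 0 and 1 and the regulators 0 and 4, so that the 5 lower calls among entry genes and the 4 among other uptake genes were lost, and the lipolysis genes gave 5 and 1. With spike-in scaling the counts were 7 and 2, 5 and 2, 2 and 4, 2 and 3, and 2 and 5, in the order in which the lists were described, and 15 of the 22 lower genes stayed called. Without the filter 1 other uptake gene was lower in place of 4.

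**Figure D4:**
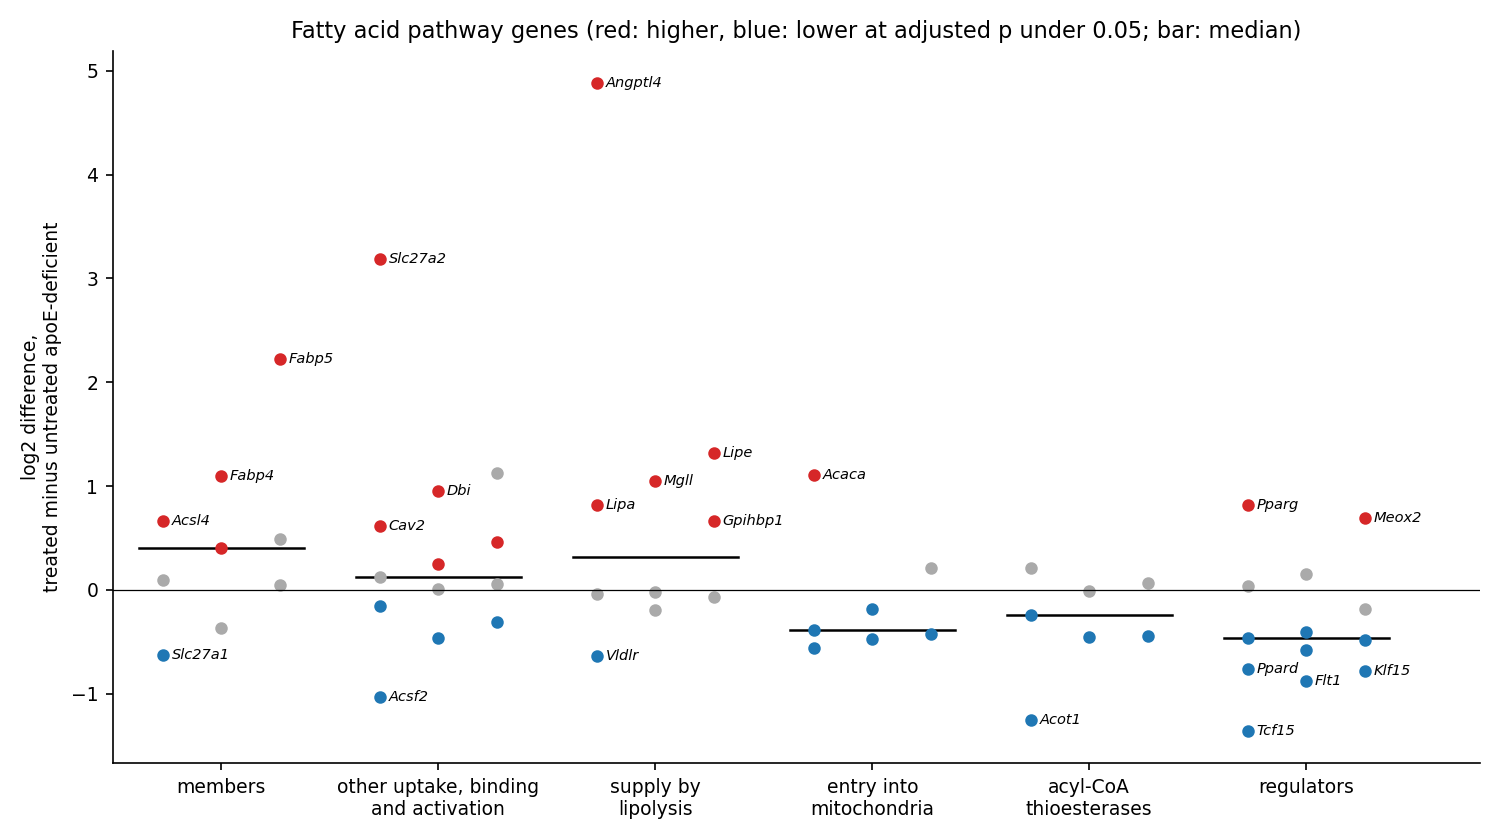
Log2 differences between treated and untreated apoE-deficient hearts (vertical axis) are plotted for each tested gene of the member list and the 5 other lists, with red for higher, blue for lower, grey for not called and a bar at the list's median. Called genes past 0.6 in size are named. Fabp5 at 2.23, Slc27a2 at 3.18 and Angptl4 at 4.88 head their lists, while most points of the entry and regulator lists lie below 0, on the side that turned with unscaled signals.

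Against B6 hearts the same lists gave 4 higher and 2 lower of 13, 5 and 2 of 10, 1 and 4 of 7, 0 and 4 of 7, and 2 and 6 of 13 in treated hearts. Of all genes 8.78% were higher and 9.87% lower in that comparison. Slc27a2 was higher there by 4.13 ± 0.26, Dbi by 0.86 ± 0.04 and Gpihbp1 by 0.98 ± 0.05, while Acot1 was lower (-2.02 ± 0.17). Of the 18 list genes lower in that comparison, 16 turned with unscaled signals, and Acot7 also with spike-in scaling, where 10 of the 18 stayed called and the counts became 7 and 2, 7 and 2, 1 and 2, 3 and 2, and 4 and 2. Without the intensity trend they were 2 and 0, 5 and 0, 1 and 1, 0 and 2, and 0 and 2. In untreated apoE-deficient against B6 hearts the counts were 1 higher and 2 lower of 13, 4 and 2 of 10, 1 and 1 of 7, 1 and 1 of 7, and 2 and 0 of 13, of which Mgll and Acot13, higher, turned with unscaled signals and Acss1, lower, with spike-in scaling, where the counts were 3 and 1, 6 and 1, 2 and 1, 1 and 1, and 4 and 0. Of all genes 3.85% were higher and 4.66% lower in untreated apoE-deficient against B6 hearts. Angptl4 was lower there (-1.81 ± 0.21, adjusted p = 0.00172), as was the brain type carrier Fabp7 (-1.81 ± 0.36, adjusted p = 0.0211, lost without untreated replicate 2 or either B6 array). Gpihbp1 (0.32 ± 0.05) and Vldlr (0.26 ± 0.04) were higher in that comparison with each scaling except the unscaled signals (0.029 and 0.069). Gpihbp1 lost this call without either untreated array or B6 replicate 1, and Vldlr without B6 replicate 2. Without the intensity trend each of the 5 lists held 0 higher and 0 lower between untreated apoE-deficient and B6 hearts, so all of these calls were lost.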

How the data were processed

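RNA from 6 mouse heart samples was labelled with biotin and read on Affymetrix arrays, as the protocols in the labels state. The deposited values are linear intensities, 1 for each probe set on each array. GCOS is the software named in the submitters' processing notes, with neither version nor scaling stated. After 64 control probe sets were removed from 45101, intensities were quantile normalized and log2 was taken with a pseudocount of 11.1 (their 25th percentile). Probe sets with a mean above the 40th percentile (4.99) entered limma 3.58.1 (R 4.3.3), 1 fit of all arrays with an intensity trend, 3 residual and 5.97 prior degrees of freedom. Symbols come from the array's annotation, which can be old, brought up to date by gene number with the GRCm38.p6 gene table (names only): 34945 probe sets had 1 symbol, 932 several and 9160 none. The members and lists were chosen with earlier results of these data known. Every member is named; of each other list, up to 5 genes with the smallest p, and all called in a direction where these were 5 or fewer. The procedure was tested on simulated data, in which 60 to 74 of 27022 probe sets were changed at each size in each comparison. There it recovered 12.1% to 19.4% of log2 changes of 0.5, 28.8% to 38% of 1 and 57.6% to 67.2% of 2. A gene that did not pass may thus still differ. Of its calls on the simulated data 1.18% to 5.33% were false, by comparison. In the real comparisons 5355, 1909 and 4066 probe sets were called, so this share is not the error rate of those calls. The number of arrays limits the precision. Alternatives were 4 scalings, 2 pseudocounts, 2 filters, no trend, averaged probe sets, fits of 2 groups, a replicate block and each array left out.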

Additional observations from a re-analysis of the deposited data

How the results depend on the processing

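Each of the 27 differences of member genes was recomputed under 18 alternatives: 411 values kept their sign and their side of the threshold, 26 kept the sign but lost the call, 21 kept the sign and gained a call and 28 turned sign. The direction and call of Fabp4 and Fabp5 in treated against either other group held under all of them. Of the 9 member genes, 5 were called between treated and untreated apoE-deficient hearts, 4 higher and 1 lower, but 3 and 2 with medians or trimmed means made equal, 4 and 2 with spike-in scaling, 9 with unscaled signals, 3 without the intensity trend and 4 to 6 when 1 array was left out. Between untreated apoE-deficient and B6 hearts 2 were called, both lower, but 2 higher and 1 lower with spike-in scaling, 1 with array medians made equal, with trimmed means made equal, with unscaled signals or without the filter, 0 in limma without the trend (1 at an unadjusted p under 0.05) and 1 to 3 with 1 array left out. Between treated and B6 hearts 5 were higher and 1 lower, but 4 and 3 with medians or trimmed means made equal, 4 and 2 with spike-in scaling, 8 and 0 unscaled, 3 in all without the trend and 4 to 6 with 1 array left out. Beside these member counts, 11675, 795 and 10021 of 13228 genes were called unscaled in the 3 comparisons, in the same order. Spike-in scaling called 3924, 1775 and 4422 of 13234 genes, and the fit without the trend 878, 4 and 375 of 13236. In treated against untreated apoE-deficient hearts the sign turned for Cd36 with medians (-0.10) or trimmed means (-0.17) made equal, for Fabp3 with medians (-0.70), trimmed means (-0.77), spike-in scaling (-0.60) and averaged probe sets (-0.22), and with unscaled signals for Slc27a1 (0.60) and Slc27a4 (0.91). With 1 array left out, Slc27a4 ranged from -0.81 to 0.080, Acsl3 from -0.046 to 1.03 and Acsl5 from -0.040 to 0.23. In untreated apoE-deficient against B6 hearts the sign turned with spike-in scaling for Cd36 (0.093), Fabp4 (0.15) and Acsl3 (0.10), with trimmed means for Fabp4 (0.016), with a pseudocount of 50 for Acsl3 (0.013) and with unscaled signals for Fabp3 (-0.15) and Acsl5 (-0.034), while Acsl3 ranged from -0.55 to 0.53 with 1 array left out. In treated against B6 hearts it turned for Cd36 with medians (-0.22) or trimmed means (-0.22), for Fabp3 with medians (-0.59), trimmed means (-0.58), spike-in scaling (-0.27) and averaged probe sets (-0.11), and for Slc27a1 with unscaled signals (0.093), while Slc27a4 ranged from -0.30 to 0.59 with 1 array left out. The cause was not tested.

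Over all probe sets, higher calls made up 50.5% of those between treated and untreated apoE-deficient hearts, 64.7% with medians made equal, 79.6% with spike-in scaling and 99.9% unscaled. For untreated apoE-deficient against B6 hearts these shares were 44.8%, 25.7%, 80.9% and 4.65%, and for treated against B6 hearts 49.6% rose to 92.5% with spike-in scaling and 99.7% unscaled. The counts of called probe sets, 5355, 1909 and 4066 in the 3 comparisons, fell to 1653, 10 and 626 without the trend, were 22739 and 18723 unscaled for treated against either other group, and 3039 and 7604 with spike-in scaling for either group against B6 hearts. Leaving out treated replicate 1 gave 2933 between treated and untreated apoE-deficient hearts, leaving out an untreated or B6 array gave 617 to 964 between those groups, and leaving out treated replicate 1, B6 replicate 1 or B6 replicate 2 gave 2275, 2624 and 2205 between treated and B6 hearts. With the replicate number as a block, the counts of member genes stayed at 5, 2 and 6 and no member gene's call changed, with 5344, 1937 and 4103 probe sets called. The numbers were no evidence of pairing, since deviations of same-numbered arrays correlated at -0.0063 to 0.033.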
